A study of Mus musculus with 4 samples.

Results

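The family described here is that of the dual-specificity MAP kinase phosphatases, taken as the rows of the deposited expression table whose symbol was Dusp1, Dusp2, Dusp3, Dusp4, Dusp5, Dusp6, Dusp7, Dusp8, Dusp10 or Dusp16. All 10 symbols were found, each on a locus of its own, among 23735 loci. The libraries came from mouse peritoneal macrophages of strain C57BL/6. The Ch25h_KO group held 2 libraries of genotype ApoE-/-/Ch25h-/- and the Ch25h_WT group 2 libraries of genotype ApoE-/-/Ch25h+/+, so both groups were labelled as lacking apolipoprotein E, and by label they differ in Ch25h, the gene of cholesterol 25-hydroxylase. Mice aged 6 weeks were given 3% thioglycolate, an irritant that draws macrophages into the peritoneal cavity, 3 days before the cells were collected and put in culture. The labels speak of 12 mice per group and of biological duplicates, not of how the mice were shared between libraries, so the p-values rest on library-to-library spread alone, which may be technical.

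MAP kinases (ERK, JNK and p38) are switched on by phosphorylation of a threonine and a tyrosine in their activation loop, and these phosphatases remove both phosphates. Most members carry a docking domain that picks the kinase they act on, and they sort by place and target into inducible nuclear enzymes, cytoplasmic enzymes for ERK, and enzymes that prefer JNK and p38. Several are themselves transcribed on stimulation of the pathway they switch off, which makes them negative feedback genes. In macrophages Dusp1 is the best known, as a brake on p38 and on cytokine output after Toll-like receptor stimulation.

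Ch25h itself was 4.25 and 5.53 FPKM (fragments per kilobase of transcript, scaled to a library's total of mapped fragments) in the Ch25h_KO libraries, against 63.3 and 65.3 FPKM in the Ch25h_WT libraries, a difference in log2(FPKM + 1) of -3.48 (SE 0.12, limma adjusted p = 0.0031). Apoe was 3683 and 3373 FPKM in Ch25h_KO and 614 and 610 FPKM in Ch25h_WT, although all 4 libraries carry the ApoE-/- label, so its deletion could not be checked from these values. The groups thus differed at Ch25h and at Apoe, and the part of each in any difference given here cannot be told apart. All 8 macrophage markers were present in each library, from Lyz2 at 19570 to 20540 FPKM down to Fcgr1 at 4.22 to 4.83 FPKM. Low values gave an implied depth of 10200000 and 9540000 fragments in Ch25h_KO and 12400000 and 9920000 fragments in Ch25h_WT. Summed mast cell markers (7 genes) were 156 and 159 FPKM in Ch25h_KO against 223 and 229 FPKM in Ch25h_WT. Of 6 tested ones, 5 had both Ch25h_KO libraries below both Ch25h_WT libraries, which held for 30.3% of all tested loci. Fcer1a overlapped, at 8.80 and 6.81 FPKM in Ch25h_KO and 8.21 and 7.64 FPKM in Ch25h_WT. Ms4a2 was at most 0.236 FPKM in any library and 0 in Ch25h_KO replicate 1. Summed neutrophil markers (9 of 10 genes in the table) were 117 and 117 FPKM against 72.3 and 83.1 FPKM, nearly all of it S100a8 and S100a9. Camp, a granule gene, was 0.880 and 0.471 FPKM in Ch25h_KO and 0.906 and 1.36 FPKM in Ch25h_WT. The granule genes Ngp, Ltf, Mpo and Elane were each at 0 in at least 1 library and nowhere above 0.292 FPKM. Dendritic cell markers (4 genes) summed to 29.2 and 25.7 FPKM in Ch25h_KO and 22.5 and 20.8 FPKM in Ch25h_WT, nearly all of it Cd209a, which averaged 25.4 FPKM against 19.3 FPKM. Zbtb46 averaged 1.63 FPKM in Ch25h_KO and 1.79 FPKM in Ch25h_WT, and Flt3 0.250 and 0.448 FPKM. B cell markers (5 genes) summed to 285 and 300 FPKM against 317 and 321 FPKM. Of these, 4 had both Ch25h_KO libraries below both Ch25h_WT libraries, while the groups of Pax5 overlapped, at means of 6.19 FPKM in Ch25h_KO and 5.03 FPKM in Ch25h_WT. T cell markers summed to at most 7.33 FPKM in any library, and the eosinophil and mesothelial lists to at most 0.730 and 0.605 FPKM, with Epx at 0 in all 4. In bulk libraries such as these, more cells of a type and more RNA per cell cannot be told apart, and the part of these other cells in the DUSP values was not tested.

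Of the 10 members, 9 had a mean of at least 1 FPKM and were tested, and Dusp8 fell below that level. With limma over all 10074 tested loci, 0 of the 9 passed at a Benjamini-Hochberg adjusted p under 0.05, against 0.437% of all loci (0.228% higher and 0.208% lower in Ch25h_KO). At an unadjusted limma p under 0.05 the members higher in Ch25h_KO were 5 of 9 (Dusp1, Dusp5, Dusp2, Dusp6 and Dusp16), against 9.38% of all loci in that direction, and the members lower were 0 of 9, against 11.5% of all loci. The members at an unadjusted p under 0.05 numbered 3 without Ch25h_WT replicate 1 and 4 without any other single library or with libraries scaled to equal FPKM sums. In the same 5 genes both Ch25h_KO libraries lay above both Ch25h_WT libraries, which held for 23.4% of all tested loci, and in the other 5 members, Dusp8 included, the groups overlapped. No tested member had both Ch25h_KO libraries below both Ch25h_WT libraries, which held for 30.3% of loci. A difference above 0 was found in 6 of 9 members and in 45.7% of all loci, and the median difference in log2(FPKM + 1) was 0.17 over the 9 members and -0.014 over all tested loci. With 2 libraries against 2, an exact two-sided permutation test of a single gene cannot go below p = 0.333, so the fit across all loci is the test used throughout.

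**Figure D1:**
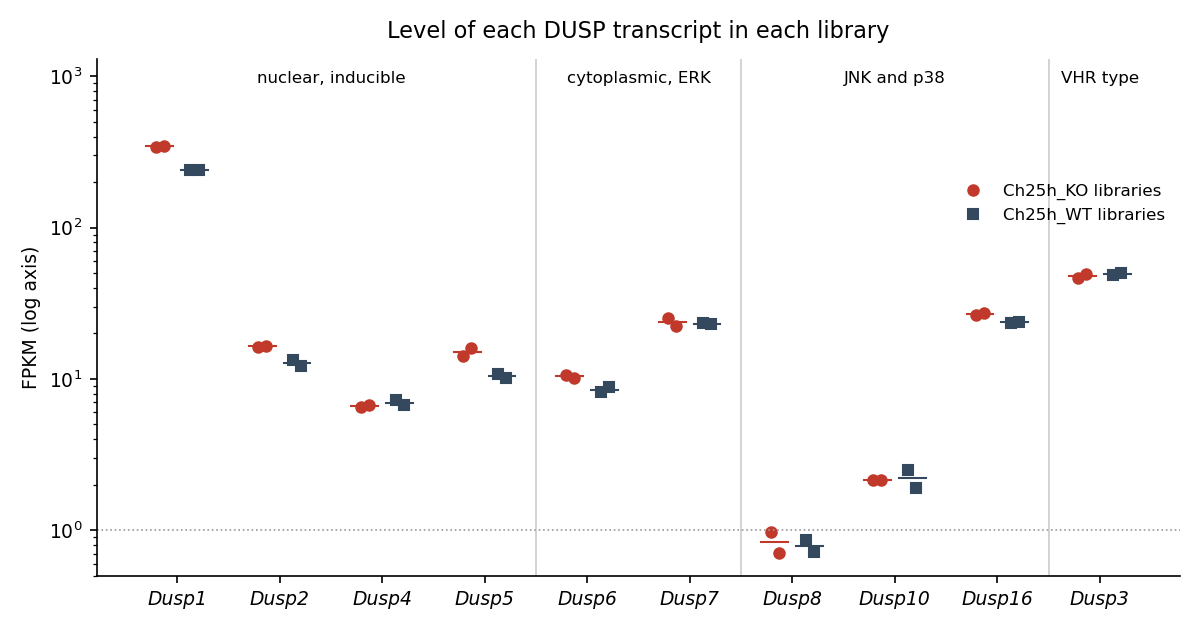
FPKM of each of the 10 phosphatase transcripts in each library, on a log axis, with Ch25h_KO libraries as circles and Ch25h_WT libraries as squares, the group mean as a short line and 1 FPKM as a dotted line. Dusp1 stands at 342 and 346 FPKM in Ch25h_KO and at 242 FPKM in both Ch25h_WT libraries, while Dusp8 lies below 1 FPKM in all 4.

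Dusp1, the nuclear phosphatase that acts on p38, JNK and ERK, was by far the most abundant member. It was 342 and 346 FPKM in the Ch25h_KO libraries, against 242 and 242 FPKM in the Ch25h_WT libraries. The replicates of each group lay within a few FPKM of each other and the groups were well apart. The Ch25h_WT pair had a standard deviation of 0.027 FPKM (0.011% of its mean), below the estimated counting error of up to 1.45%. That pair thus lay closer together than counting alone would usually give, which also narrows the ratios of pairs. The ratio of group means was 1.42, and each of the 4 possible pairs of a Ch25h_KO with a Ch25h_WT library gave a ratio between 1.41 and 1.43. The difference in log2(FPKM + 1) was 0.51 (SE 0.051, 95% interval 0.37 to 0.64), with limma adjusted p = 0.052, just short of the threshold. By p-value Dusp1 was number 48 of 10074 loci, where the first 44 passed. The call turned on the settings, and Dusp1 passed in 3 of the 12 alternatives tried. It failed with 0.1 or 0.01 added to FPKM in place of 1 (limma adjusted p = 0.087 and 0.093). With no filter on low values it failed too (limma adjusted p = 0.085). Scaling to equal FPKM sums (limma adjusted p = 0.060) and the replicate number as a block (limma adjusted p = 0.16) also left it short. Dusp1 passed when only loci of at least 5 FPKM were tested (limma adjusted p = 0.021), where 2.42% of the tested loci passed. With libraries rescaled by median ratios it passed too (limma adjusted p = 0.048), as did 0.486% of all loci. Dusp1 also passed when limma modelled the spread with its trend and robust options (adjusted p = 0.00011). Under these 7.8% of all loci passed, and 4.04% passed as higher in Ch25h_KO. Dusp1 failed with any library left out, although the difference itself stayed between 0.50 and 0.51.

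Dusp5, a nuclear phosphatase that is specific for ERK, was 14.1 and 15.9 FPKM in Ch25h_KO libraries and 10.8 and 10.1 FPKM in Ch25h_WT libraries. The groups did not overlap, and the ratio of means, 1.44, was close to that of Dusp1 at a level more than an order of magnitude lower. Its log2 difference was 0.48 (SE 0.078, 95% interval 0.28 to 0.69, limma adjusted p = 0.097). Dusp2, a nuclear phosphatase first described in activated lymphocytes and also induced in myeloid cells, was 16.2 and 16.5 FPKM in Ch25h_KO libraries and 13.4 and 12.2 FPKM in Ch25h_WT libraries. These groups were apart as well, at a ratio of means of 1.28 and a log2 difference of 0.33 (SE 0.065, limma adjusted p = 0.11). With limma's trend and robust options both genes passed (adjusted p = 0.0080 for Dusp5 and 0.021 for Dusp2), 2 of the 3 members that then did. Under these options 7.8% of all loci passed, and 4.04% passed as higher in Ch25h_KO. Neither gene passed under any other alternative. Dusp4, the remaining inducible nuclear member, which acts on ERK and JNK, was 6.52 and 6.77 FPKM in Ch25h_KO libraries and 7.28 and 6.67 FPKM in Ch25h_WT libraries. Here the groups overlapped, and the log2 difference of -0.061 had a 95% interval of -0.23 to 0.11, which does not reach the differences of Dusp1, Dusp2 and Dusp5.

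**Figure D2:**
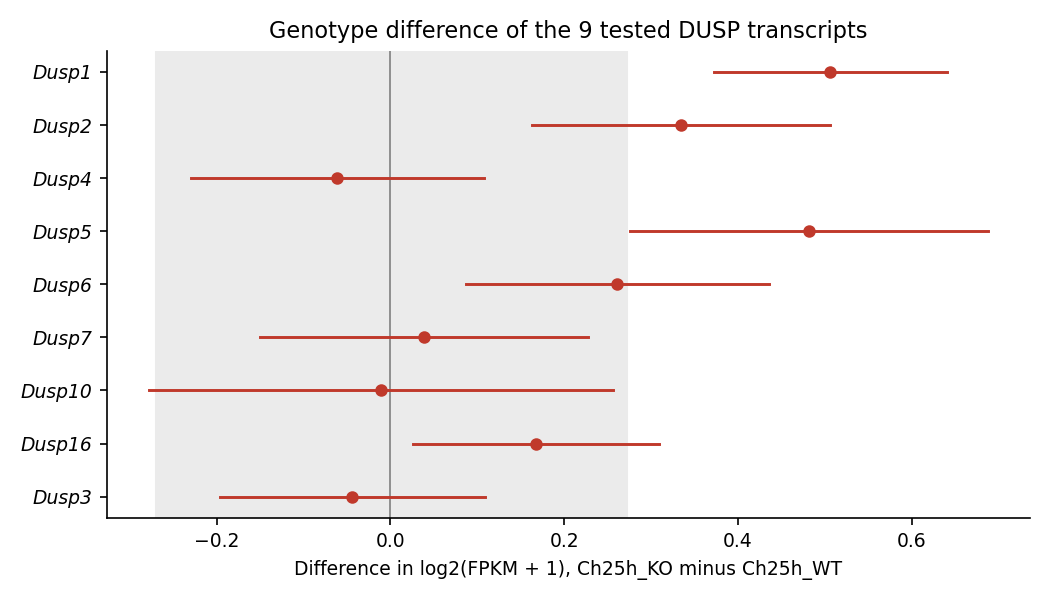
Difference in log2(FPKM + 1), Ch25h_KO minus Ch25h_WT, for the 9 tested members (points) with 95% intervals from limma (lines, not adjusted for the number of loci). The grey band spans the middle 90% of the differences of all tested loci, from -0.27 to 0.27, and Dusp1, Dusp5 and Dusp2 lie to its right.

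The proximal promoters of these genes are shown because Dusp1, Dusp2 and Dusp5 had the largest differences, and Dusp8 because it held the same element as Dusp1. Each is the 250 bases before the RefSeq start (GRCm38.p6), written along the gene's strand, and capitals mark matches on either strand to the motifs searched, with positions counted back from -1 at the base before the start. They lie at chr17:26508473-26508722 on the minus strand for Dusp1, chr2:127335909-127336158 on the plus strand for Dusp2, chr19:53528895-53529144 on the plus strand for Dusp5 and chr7:142095285-142095534 on the minus strand for Dusp8.
Dusp1: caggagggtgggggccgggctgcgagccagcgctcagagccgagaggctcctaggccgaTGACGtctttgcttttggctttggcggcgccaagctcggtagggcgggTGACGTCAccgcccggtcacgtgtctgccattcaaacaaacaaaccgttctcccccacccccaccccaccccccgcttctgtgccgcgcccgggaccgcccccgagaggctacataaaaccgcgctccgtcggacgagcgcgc
Dusp2: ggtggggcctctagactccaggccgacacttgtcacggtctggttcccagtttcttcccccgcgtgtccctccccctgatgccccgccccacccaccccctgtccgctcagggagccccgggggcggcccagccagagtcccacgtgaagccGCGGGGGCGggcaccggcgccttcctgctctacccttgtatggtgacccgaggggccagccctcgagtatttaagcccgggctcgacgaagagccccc
Dusp5: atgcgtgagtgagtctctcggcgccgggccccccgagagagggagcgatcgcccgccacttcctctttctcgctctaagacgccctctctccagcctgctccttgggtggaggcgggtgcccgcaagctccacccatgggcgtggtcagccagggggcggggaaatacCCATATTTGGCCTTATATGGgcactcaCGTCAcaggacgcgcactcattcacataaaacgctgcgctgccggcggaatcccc
Dusp8: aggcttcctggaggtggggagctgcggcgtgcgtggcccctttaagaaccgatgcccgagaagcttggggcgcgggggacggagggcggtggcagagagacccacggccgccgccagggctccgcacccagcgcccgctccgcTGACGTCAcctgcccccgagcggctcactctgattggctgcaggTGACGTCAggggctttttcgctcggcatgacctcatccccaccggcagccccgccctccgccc

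The RefSeq promoter set held none for Dusp4, so 9 of the 10 members were searched. The cyclic AMP response element TGACGTCA occurred in 1.55% of all 32851 RefSeq promoters in a window of this length, and in 2 of the 9 members. Dusp1 had it at -143 to -136, and Dusp8 at -107 to -100 and again at -63 to -56. Its core TGACG, which lies within each full element, was found in 17.8% of promoters and in 4 of the 9 members. Outside a full element the core stood at -191 to -187 in Dusp1, at -55 to -51 in Dusp5 and at -70 to -66 in Dusp16. In Dusp5 a pair of CArG boxes, the element of serum response factor, stood end to end at -82 to -73 and -72 to -63, and 1.47% of promoters held any. The EGR element GCGNGGGCG was found in 4.7% of promoters and in Dusp2, at -98 to -90, and Dusp16. No member's window held the AP-1 element TGANTCA (6.75% of promoters), the kappa B consensus (3.9%) or the ETS element CCGGAAGT (2.88%). These are matches of letters and do not show that a factor binds.

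Dusp6 and Dusp7 are the cytoplasmic phosphatases of ERK in the family. Dusp6, an enzyme specific for ERK whose transcript is widely read as a marker of ERK activity, was 10.6 and 10.1 FPKM in Ch25h_KO libraries and 8.13 and 8.88 FPKM in Ch25h_WT libraries. The groups were apart at a ratio of means of 1.22, and the log2 difference of 0.26 (SE 0.066, 95% interval 0.087 to 0.44) had limma adjusted p = 0.15. Dusp7, its close relative, was 25.2 and 22.5 FPKM in Ch25h_KO libraries, which enclosed the 23.3 and 23.0 FPKM of the Ch25h_WT libraries. Its log2 difference of 0.039 had a 95% interval of -0.15 to 0.23 (limma adjusted p = 0.79). In sum the pair gave 35.8 and 32.6 FPKM in Ch25h_KO and 31.5 and 31.8 FPKM in Ch25h_WT and a ratio of means of 1.08.

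Among the phosphatases that prefer JNK and p38, Dusp16 was 26.2 and 27.3 FPKM in Ch25h_KO libraries and 23.6 and 23.8 FPKM in Ch25h_WT libraries. The groups were apart, but by a ratio of means of only 1.13 (log2 difference 0.17, SE 0.054, limma adjusted p = 0.20). Dusp10, known from knockout mice as a restraint on JNK in immune cells, was 2.16 FPKM in both Ch25h_KO libraries, which lay between the 2.50 and 1.90 FPKM of the Ch25h_WT libraries. Its log2 difference of -0.011 had a 95% interval of -0.28 to 0.26, wide enough to reach about the size of the Dusp6 difference on either side. Dusp8, best known from brain and heart, was 0.965 and 0.709 FPKM in Ch25h_KO libraries and 0.858 and 0.721 FPKM in Ch25h_WT libraries, and the groups overlapped. At the implied depth these values stand for about 47 and 33 fragments in Ch25h_KO and 51 and 34 in Ch25h_WT, a counting error of up to 17.5%, and with no filter on low values its limma adjusted p was 0.89. For comparison, Dusp1 rested on about 6947 and 6564 fragments in Ch25h_KO and 5963 and 4771 in Ch25h_WT, a counting error of at most 1.45%. Dusp3, the small phosphatase known as VHR that has no docking domain, was 46.5 and 49.0 FPKM in Ch25h_KO libraries and 48.5 and 49.9 FPKM in Ch25h_WT libraries. The groups overlapped, and its log2 difference of -0.044 had a 95% interval of -0.20 to 0.11 (limma adjusted p = 0.71).

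In both groups the order of the levels was the same, namely Dusp1, Dusp3, Dusp16, Dusp7, Dusp2, Dusp5, Dusp6, Dusp4, Dusp10 and Dusp8. No neighbours in this order had overlapping FPKM ranges in either group, although the closest stood only 1.09-fold apart in Ch25h_KO (Dusp2 over Dusp5) and 1.02-fold apart in Ch25h_WT (Dusp16 over Dusp7). Dusp1 was 7.20 times as high as Dusp3, the next member, in Ch25h_KO and 4.91 times in Ch25h_WT. It made up 69.7% and 69.6% of the summed FPKM of the 10 members in Ch25h_KO, against 63.6% and 63.8% in Ch25h_WT. The family as a whole summed to 490.3 and 496.5 FPKM in Ch25h_KO and 380.0 and 379.0 FPKM in Ch25h_WT, a ratio of 1.30. Without Dusp1 the sums were 148.5 and 150.9 FPKM against 138.3 and 137.2 FPKM, a ratio of 1.09, so most of the family's difference in level was that of Dusp1.

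**Figure D3:**
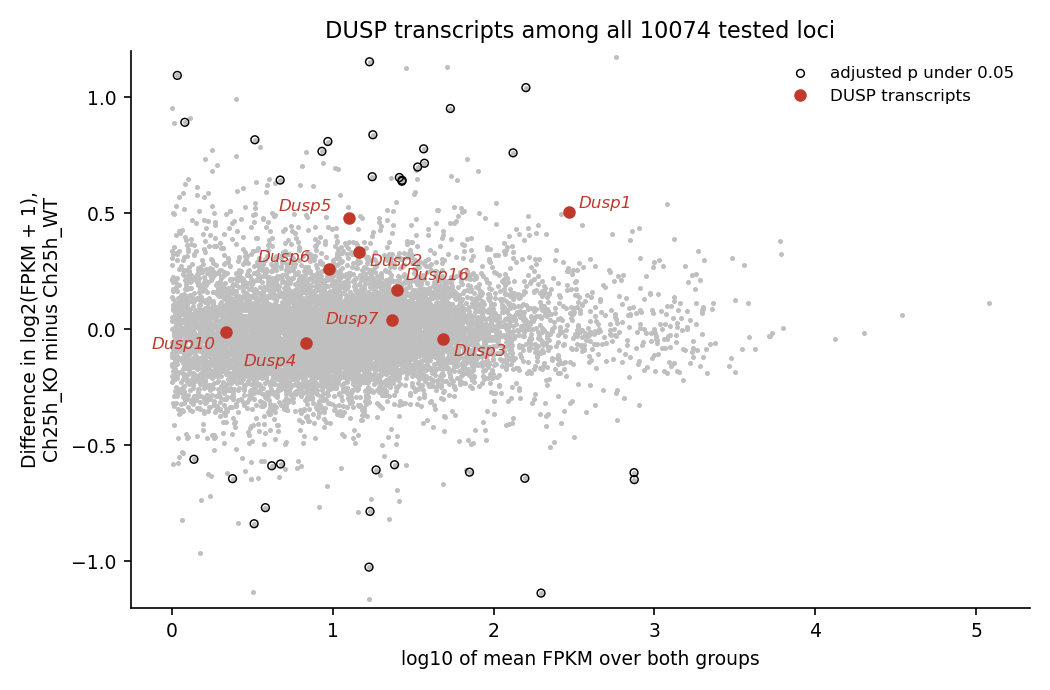
Difference in log2(FPKM + 1), Ch25h_KO minus Ch25h_WT, against the log10 of the mean FPKM for 10074 tested loci (grey points), with loci past the adjusted threshold ringed and the 9 tested members in red; 48 loci lie beyond the vertical range of 1.2 in either direction. Dusp1 stands at percentile 98.95 of the differences of all tested loci, and no member is ringed.

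The members also differed in gene structure, read from one principal GENCODE vM21 transcript each (GRCm38). Of the 10 genes, 7 had 4 or fewer exons, as had 19.0% of the 9093 tested genes with a usable model. Early response genes are often short and their messages often unstable, through AU-rich elements built on ATTTA in the untranslated 3′ end. Dusp1 and Dusp2 had 4 copies of ATTTA each, or 5.80 and 6.88 per kilobase of that region, above the upper decile of tested genes, 4.16, and their median, 1.32. Dusp5 and Dusp6 held 1 copy each, at 0.902 and 0.841 per kilobase, and Dusp7 held 0. Dusp10 held 3 copies, or 2.69 per kilobase, above the upper quartile of tested genes, 2.63. Dusp8 held 5 copies (2.11 per kilobase), Dusp4 2 copies (1.80), Dusp16 3 copies (1.24) and Dusp3 4 copies (1.11).

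The kinases of the pathway held no gene past the threshold. With limma over all loci, 0 of 9 tested MAP kinases, 0 of 6 MAP2 kinases, 0 of 20 MAP3 kinases and 0 of 10 kinases activated by MAP kinases passed, and at an unadjusted p under 0.05 these lists held 1, 0, 2 and 2 genes, against 20.9% of all loci. Their median log2 differences were 0.029, 0.067, 0.020 and 0.068. In these lists 3, 3, 6 and 6 genes had both Ch25h_KO libraries above both Ch25h_WT libraries (23.4% of all tested loci). In 4, 2, 6 and 2 genes both Ch25h_KO libraries lay below (30.3% of all tested loci). Mapk3, an ERK kinase gene, was 37.0 and 35.0 FPKM in Ch25h_KO libraries and 32.5 and 33.8 FPKM in Ch25h_WT libraries (limma adjusted p = 0.34). Mapk9, a JNK gene, was 8.08 and 8.48 FPKM in Ch25h_KO libraries and 9.17 and 9.49 FPKM in Ch25h_WT libraries (limma adjusted p = 0.23). Mapkapk2, the kinase through which p38 stabilises cytokine messages, averaged 246 FPKM in Ch25h_KO and 255 FPKM in Ch25h_WT (limma adjusted p = 0.61). Mknk2, which phosphorylates a translation initiation factor, averaged 67.9 FPKM against 58.2 FPKM (limma adjusted p = 0.14).

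Other brakes on the pathway likewise held no gene past the threshold. Among 6 tested phosphatases of other families 0 passed with limma and 2 had an unadjusted p under 0.05 (20.9% of all loci), namely Ptpn7, a tyrosine phosphatase of ERK and p38 in blood cells, at 46.3 against 41.4 FPKM on average in Ch25h_KO and Ch25h_WT, and Ppm1b at 15.9 against 18.6 FPKM. Of these 6 phosphatases, 4 had both Ch25h_KO libraries above both Ch25h_WT libraries and 1 below (23.4% and 30.3% of all tested loci). None of 3 tested Sprouty and Spred inhibitors of the ERK pathway passed, adjusted or unadjusted, with Spred1 the most abundant at 18.9 FPKM in Ch25h_KO and 18.5 FPKM in Ch25h_WT. Of 16 other DUSP genes, most of them small phosphatases that do not act mainly on MAP kinases, 7 were tested, and 0 passed with limma, adjusted or unadjusted, with a median log2 difference of 0.13. In 5 of these 7 both Ch25h_KO libraries lay above both Ch25h_WT libraries, and in 1 below, against 23.4% and 30.3% of all tested loci. Dusp22 had a log2 difference of 0.31 and Dusp23 one of -0.22 (limma adjusted p = 0.30 and 0.31). Dusp9, the remaining member of the docking-domain type, was at most 0.175 FPKM in any library.

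Immediate early genes, which MAP kinases drive alongside these phosphatases, were read from the same libraries. Of 12 tested AP-1 and EGR immediate early factors, 1 passed with limma over all loci and 6 were higher and 0 lower at an unadjusted p under 0.05, against 0.437%, 9.38% and 11.5% of all loci. Egr1, an ERK-driven zinc finger factor, rose to 33.5 and 32.9 FPKM in Ch25h_KO, against 20.6 and 21.2 FPKM in Ch25h_WT (log2 difference 0.64, SE 0.053, limma adjusted p = 0.035). Fos was 33.0 and 33.0 FPKM against 26.4 and 26.3 FPKM (limma adjusted p = 0.097). Of the 12 factors, 8 had both Ch25h_KO libraries above both Ch25h_WT libraries and 1 below (23.4% and 30.3% of all tested loci). The factor below was Atf3, at a log2 difference of -0.082 (limma adjusted p = 0.43). Egr3 had a log2 difference of -0.064 (limma adjusted p = 0.79), and its groups overlapped. In the family of Zfp36, an RNA-binding protein that p38 signalling holds inactive and that hastens the decay of ATTTA-bearing messages, 0 of 3 passed with limma and 2 were higher at an unadjusted p under 0.05 (9.38% of all loci), with Zfp36 at 270 and 273 FPKM in Ch25h_KO libraries and 248 and 245 FPKM in Ch25h_WT libraries.

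Transcripts known to be overproduced by macrophages that lack Dusp1 were compared as a last list, of 7 genes. None passed with limma over all loci, and at an unadjusted p under 0.05 6 were higher and 1 lower in Ch25h_KO (9.38% and 11.5% of all loci), with a median log2 difference of 0.28. The cytokine genes Il6 and Il10 averaged 102 and 53.3 FPKM in Ch25h_KO and 80.1 and 37.1 FPKM in Ch25h_WT (limma adjusted p = 0.10 for each). Tnf was the exception, at 51.5 and 51.1 FPKM in Ch25h_KO libraries and 60.0 and 60.0 FPKM in Ch25h_WT libraries (log2 difference -0.22, limma adjusted p = 0.13). Cd14, the lipopolysaccharide co-receptor and one of the macrophage markers, was 6870 and 6751 FPKM in Ch25h_KO and 5178 and 5288 FPKM in Ch25h_WT (limma adjusted p = 0.078). The macrophage markers Adgre1 and Csf1r averaged 384 and 283 FPKM in Ch25h_KO and 422 and 311 FPKM in Ch25h_WT (limma adjusted p = 0.25 and 0.28), and the median log2 difference of the 8 markers was -0.029. The part of these genes in the DUSP differences was not tested.

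**Figure D4:**
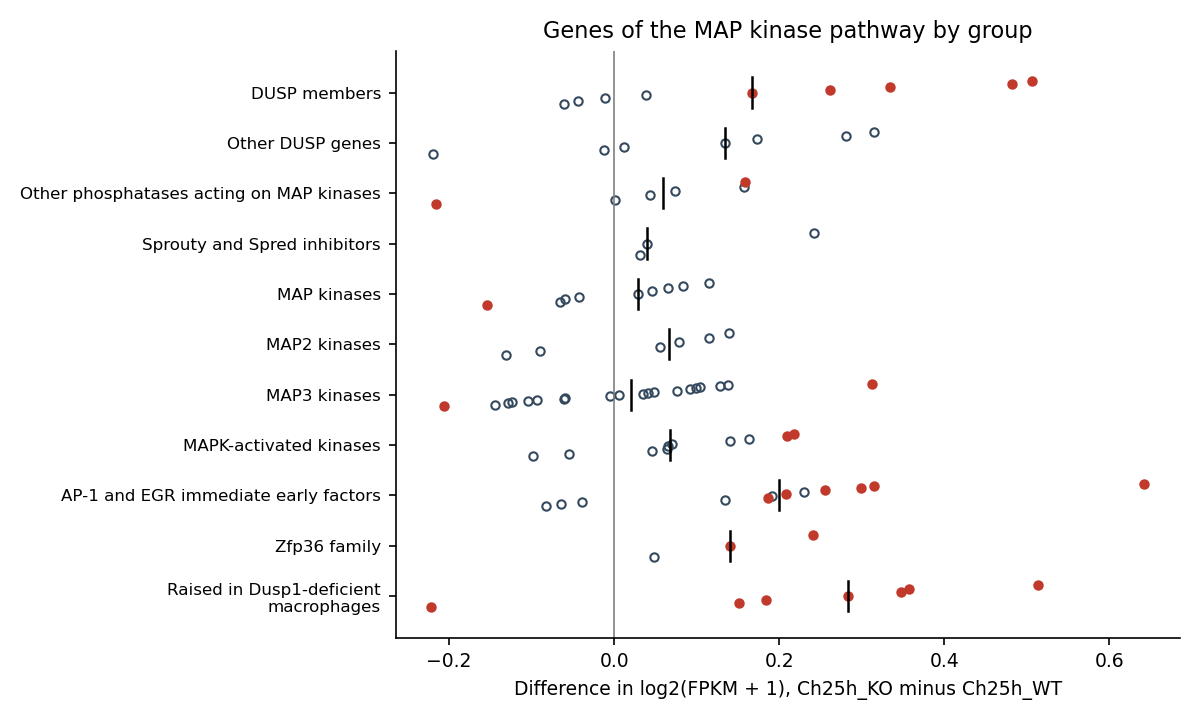
Difference in log2(FPKM + 1), Ch25h_KO minus Ch25h_WT, of each tested gene in the phosphatase family and in 10 lists of the MAP kinase pathway; filled red points have an unadjusted limma p under 0.05, open points do not, and black bars are list medians. The median is 0.17 for the phosphatases and 0.029 for the MAP kinases.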

How the data were processed

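RNA was sequenced from 2 Ch25h_KO and 2 Ch25h_WT macrophage libraries. Alignment and quantification used build mm9, TopHat2 2.0.14 and Cufflinks 2.2.1, tools named without settings in the submitters' processing notes; for annotation, strandedness and filters the sources used here name nothing. The authors deposited one value per locus and library, taken as FPKM from its range, decimals and Cufflinks-type locus names, since the header names no unit. Without strand, reads of overlapping or antisense genes cannot be told apart. Lines of the same locus were joined, and 0 per-sample columns were left out.

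Differences were tested with limma 3.58.1 (R 4.3.3) on log2(FPKM + 1) over the 10074 loci that averaged 1 FPKM or more, genotype being the single term, and p-values were adjusted by Benjamini-Hochberg over all of them. The log2(FPKM + 1) scale understates changes of low genes, and ratios of means are of FPKM. The fit was tested on simulated data. Relative depth came from the most common ratio between libraries among low values; 89.1% of 2274 low loci then held whole multiples of a fragment's value (tolerance 0.01 of the multiple), and 411 of them with a single GENCODE transcript gave the absolute depth. Fragment numbers are estimates from 1 transcript length per gene, and their errors cover counting only.

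Promoters are RefSeq's, GRCm38.p6, matched by symbol. This build is not mm9, so no coordinates were joined to the table.

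The members, lists and tests were chosen with earlier results of these data known. The rule named all members, Ch25h and Apoe, and from each list at most 2 higher and 2 lower genes by p, or its most abundant markers. Other genes (Spred1, Dusp9, the neutrophil granule genes and the markers Adgre1, Csf1r, Fcgr1, Fcer1a, Ms4a2, Pax5, Epx, Flt3 and Zbtb46) were picked after their values were seen.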

Additional observations from a re-analysis of the deposited data

How the results depend on the processing

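Of the 9 tested members, 7 kept their direction under all 12 alternatives. Dusp10 and Dusp7, both near 0, turned in 3 of 107 member values: Dusp10 was 0.00033 with median ratio scaling and between -0.15 and 0.12 with a library left out (0.12 without Ch25h_WT replicate 1), and Dusp7 was -0.038 to 0.12 (-0.038 without Ch25h_KO replicate 1). The number of members past the threshold was 0 in the main analysis, 1 (Dusp1) with a filter at 5 FPKM and with median ratio scaling, 3 with trend and robust options, and 0 in each analysis without 1 library. All loci past the threshold numbered 44, against 24 with a pseudocount of 0.01, 18 with no filter, 175 with a filter at 5 FPKM, 786 with trend and robust options and 13 to 21 with a library left out, where the lone library of a group is assumed to vary like the other group's. With the replicate number as a block, 6 loci and 0 members passed; deviations of same-numbered libraries correlated at 0.012 over loci, the labels give no shared source, and the block leaves fewer residual degrees of freedom. Why the other counts moved was not tested. Ch25h and Apoe passed under all 12 alternatives. Depth limits Dusp8 and Dusp10 most, at about 33 to 86 fragments a library.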
